A study of Homo sapiens with 8 samples.

Results

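The promoters of the cytosolic ribosomal protein genes were examined in 8 lists of accessible chromatin regions from U2OS cells, a human osteosarcoma line. The members were the protein-coding genes on chromosomes 1 to 22 and X whose symbol is RPL or RPS with a number and an optional A, L or X ending, together with RPLP0, RPLP1, RPLP2 and RPSA. There were 81 such genes of 19970 protein-coding genes, 32 for the small ribosomal subunit and 49 for the large one. Windows of 1 kb on either side of the start of the gene record (GENCODE v44, hg38) were taken as promoters, and the strongest region in the window, by fold enrichment over the local background, was used in each list.

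Accessibility was measured by Omni-ATAC-seq, in which the transposase Tn5 cuts and tags open DNA. Wild-type (WT) cells and cells in which CRISPR/Cas9 had disrupted the gene of the histone methyltransferase ASH1L (ASH1L-/-) were compared, each unchallenged or 3 h after UV-C irradiation (20 J/m2). Each of the 4 groups had 2 libraries, titled as biological replicates. The study asked with these libraries whether ASH1L opens chromatin after UV damage. ASH1L-/- cells carried deletions in exon 2 and across exons 11 and 12 and came from individually isolated colonies; how many colonies lie behind the libraries is not given in the sources used here. Genotype and clonal origin therefore cannot be told apart. All cells received DNase before harvest, to digest DNA of dead cells.

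Ribosomal proteins surround the RNA core of the ribosome, and their genes are transcribed in parallel in every growing cell. Many of their messengers start with a cytosine followed by a run of pyrimidines, the 5′ terminal oligopyrimidine (TOP) tract, through which mTOR signalling controls their translation. Several members also have roles outside the ribosome, such as RPL5 and RPL11, which bind 5S RNA and can hold back the ubiquitin ligase MDM2. A few genes are paralogs with restricted expression, among them RPL3L of striated muscle and RPL10L and RPL39L of the testis.

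The promoter sequences below are those of members with strong, weak or changing regions, from 60 bases before to 15 bases from the annotated start. They come from the RefSeq promoter table (build GRCh38.p14), which held 64 of the 81 members and, at the GENCODE canonical start, 62. All 62 windows were identical to hg38 at the same coordinates. RPL23, RPL23A, RPL30, RPL37, RPL39L, RPL3L, RPL5, RPL7, RPL8, RPS15A, RPS2 and RPS20 were among those not in the table, and RPL6 and RPS29 had no entry at the canonical start. Capitals mark the run of pyrimidines from the start, where it begins with C and has at least 4 more, and the letters CGGAAG or their reverse complement, the core recognised by ETS factors. The first 4 promoters are the strongest members with a sequence (RPS14 at chr5:150449725-150449799, RPL18 at chr19:48619164-48619238 and RPS25 at chr11:119018329-119018403 on the minus strand, RPL27 at chr17:42998359-42998433 on the plus strand). The next 4 are the weakest members with a region in all lists (RPL41 at chr12:56116573-56116647, RPS21 at chr20:62387043-62387117, RPS15 at chr19:1438336-1438410 and RPL14 at chr3:40457279-40457353, all on the plus strand). The last 3 are RPS27L at chr15:63157463-63157537, RPL10L at chr14:46651767-46651841 and RPS4X at chrX:72277234-72277308, all on the minus strand, shown as paralogs and as the member with the largest negative difference after UV.
RPS14: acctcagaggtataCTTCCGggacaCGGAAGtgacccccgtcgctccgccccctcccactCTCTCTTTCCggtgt
RPL18: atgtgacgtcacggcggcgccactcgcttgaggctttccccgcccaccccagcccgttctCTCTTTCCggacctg
RPL27: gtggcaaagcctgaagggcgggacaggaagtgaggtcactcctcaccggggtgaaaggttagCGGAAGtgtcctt
RPS25: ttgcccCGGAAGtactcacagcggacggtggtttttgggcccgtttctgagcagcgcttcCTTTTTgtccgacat
RPL41: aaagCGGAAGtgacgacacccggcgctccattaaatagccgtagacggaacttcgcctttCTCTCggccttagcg
RPS21: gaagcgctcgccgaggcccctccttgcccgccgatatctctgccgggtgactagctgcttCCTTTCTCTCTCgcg
RPS15: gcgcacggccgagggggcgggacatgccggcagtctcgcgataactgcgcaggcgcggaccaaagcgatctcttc
RPL14: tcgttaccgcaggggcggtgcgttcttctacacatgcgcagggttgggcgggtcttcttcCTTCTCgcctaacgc
RPS27L: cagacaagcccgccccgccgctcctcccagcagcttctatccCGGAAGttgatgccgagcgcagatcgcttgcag
RPL10L: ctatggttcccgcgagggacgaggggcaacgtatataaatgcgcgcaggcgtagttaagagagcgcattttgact
RPS4X: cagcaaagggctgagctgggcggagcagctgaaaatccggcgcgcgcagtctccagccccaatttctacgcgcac

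A C followed by at least 4 pyrimidines stood exactly at the canonical start of 46 of the 62 member promoters with a sequence (74.2%). The same held for 4.67% of 14546 protein-coding promoters matched in the same way, and for 5.51% of the 9002 of them with a region in all 8 lists. Counting such a tract anywhere within 5 bp of the start, the shares were 85.5% of members and 22.2% of all. Tracts of 7 or more pyrimidines were found in 36 members (58.1%) against 2.65% of all. Of the promoters shown, RPS14, RPL18, RPS25, RPL41, RPS21 and RPL14 carried the tract, and RPL27, RPS15, RPS27L, RPL10L and RPS4X did not.

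Other short motifs were counted on both strands of the 300 bases from 250 before to 50 after the start. The ETS-like core CGGAAG was in 64.5% of members, 26.9% of all promoters and 36.1% of those with a region in all 8 lists. TCGCGAGA, part of the motif known for ZBTB33, was in 19.4%, 1.95% and 2.82%, and its 12 members included RPS6, RPS15, RPS19, RPL4, RPL7A, RPL10 and RPL10A. The YY1-like core AAGATGG, which can share its first AAG with the ETS-like core, was in 12.9%, 6.69% and 8.24%. GGGCGG, the GC box of SP1, was in 59.7%, 62.6% and 74.3%, and CCAAT in 33.9%, 37.0% and 38.8%. The NRF1-like core GCATGCGC was in 4.84%, 4.48% and 6.22%, the E-box CACGTG in 4.84%, 8.92% and 10.2%, and TATAAA in 9.68%, 9.48% and 4.88%. Members had a median of 59.7% G and C in this window, against 64.0% in all promoters and 66.0% in those with a region in all 8 lists. These are matches of letters in a window and no measure of binding.

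**Figure D1:**
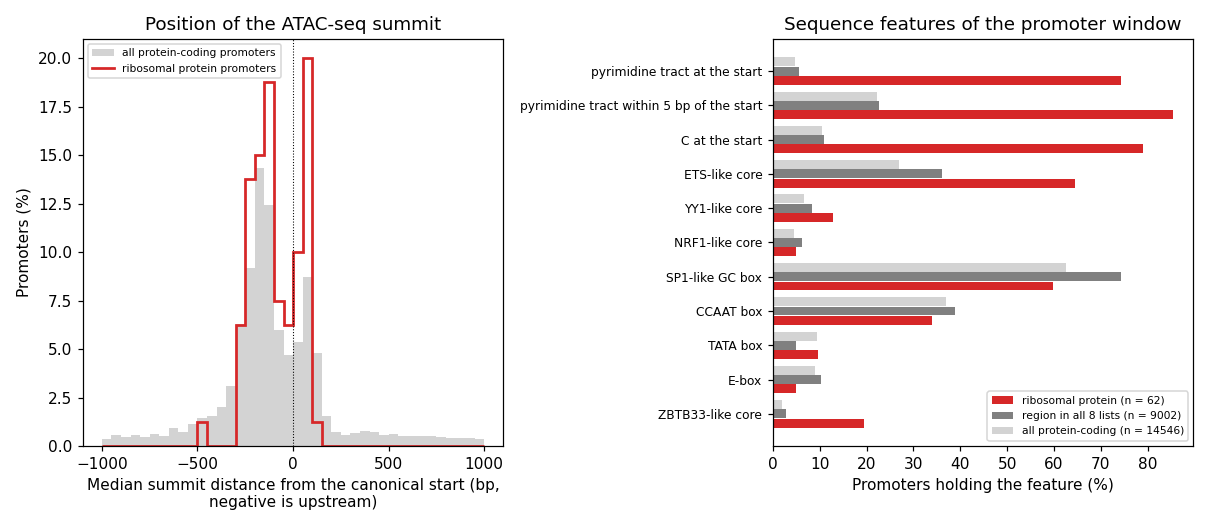
Left, distance in bp of the ATAC-seq summit from the canonical start (median of 8 lists, 50 bp bins), as % of 80 ribosomal protein promoters (red line) and of 11802 protein-coding promoters (grey). Right, % of promoters that hold each sequence feature in members (red) and in both sets of protein-coding promoters (greys); the tract at the start is in 74.2% of members and 4.67% of all promoters.

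Nearly every member was accessible in all 8 libraries. With the gene record start, 74 of 81 members (91.4%) had a region in all 8 lists, against 56.4% of all protein-coding promoters. All 32 small-subunit members were among them, and the 7 others were large-subunit members. In 9 members the gene record began over 1 kb from the canonical start, and in the remaining 72 a region was present in all 8 lists. With the canonical start, 80 members (98.8%) had a region in all 8 lists, against 59.1% of all. This second start was chosen after the data had been seen.

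The member without a region at either start was RPL3L, the muscle paralog of RPL3 (chr16, start 1957606), which was in 0 of 8 lists. RPL22 and RPL10 were in 0 lists at the gene record start, 9794 and 8422 bp away from the canonical one. At the canonical start RPL22, an RNA-binding protein of the large subunit, ranked at percentiles 95.4 to 99.3 of the 8 lists, and RPL10, which joins the large subunit late in its maturation, at 67.0 to 94.6. RPL7 and RPL4 each had a region in 1 list at the gene record start and ranked at 92.3 to 99.7 and 83.1 to 93.7 at the canonical start. RPL36 had a region in 2 lists, unchallenged WT replicate 2 and WT 3 h post UV replicate 1, at percentiles 7.88 and 10.7, and ranked at 80.0 to 92.4 at the canonical start. RPS29 and RPL6 had regions in all 8 lists at both starts, with mean percentiles of 93.2 and 82.7 at the gene record start and 98.1 and 96.1 at the canonical start.

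RPL39L, the testis paralog of RPL39, differed between its starts. At the canonical start its region ranked at 99.8 and 99.8 in unchallenged WT, 98.8 and 97.1 in WT 3 h post UV, 99.4 and 99.9 in unchallenged ASH1L-/- and 99.2 and 98.3 in ASH1L-/- 3 h post UV. It was thus among the strongest regions of every list. At the gene record start, 41412 bp away, no region was called in the 4 unchallenged lists. Regions were called there in the 4 UV lists, at percentiles 23.8 and 45.1 in WT and 48.9 and 13.6 in ASH1L-/- cells, with widths of 356 to 433 bp. Presence in all 4 UV lists and in no unchallenged list was seen at 53 of 19970 promoters (0.265%), and the opposite pattern at 7 (0.0351%). RPL39L was singled out here after its values were seen.

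The lists held 158198 to 220783 regions. They give no read counts, and relative depth was recovered as the mean pileup over the genome, which was 1.39 to 5.87, lowest and highest in replicates 2 and 1 of unchallenged ASH1L-/- cells. Replicate 2 of WT 3 h post UV stood apart: 94.2% of its regions had a q-value under 0.05, against 77.4% to 88.5% in the other 7, and its regions had a median width of 444 bp against 242 to 381 bp. In the comparisons that follow, median rank differences and single differences that moved by over 1.5 times when it was left out are also given without it. Of 7 bone and mesenchymal marker promoters 5 had a region in all lists, with TWIST1 in 2 lists and COL1A2 in 7. Of 9 promoters marking other cell types 3 did (EPCAM, KRT8 and GFAP, the last of them in 0 lists at its canonical start) and 4 had none. The ASH1L promoter had a region in all 8, which does not test the knockout, since the deletions lie elsewhere in the gene.

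Strength was compared within lists as the percentile of fold enrichment, so that 100 is the strongest region of a list. Ribosomal protein promoters ranked above the typical open promoter, as did some related genes. The mean percentile of the 74 members had a median of 93.3 (quartiles 86.7 and 96.6), against 88.4 (77.6 and 95.0) over the 11258 promoters with a region in all 8 lists. In the top quartile of all 8 lists were 58 of 74 members (78.4%), against 59.7% of those promoters. The median was 93.5 over mitochondrial ribosomal protein genes (80.3% in the top quartile), 94.3 over translation factors (72.7%), 93.1 over cytosolic relatives (83.3%) and 89.1 over ribosome biogenesis genes (61.5%), so this level was shared with the first 3 of these lists. Small-subunit members reached the top quartile in 28 of 32 cases and large-subunit members in 30 of 42. The median range of a member over the 8 lists was 10.5 percentile points, against 13.4 for all promoters.

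The raw pileup of fragments at the summit showed the same order. The median member had 94 and 98 fragments in unchallenged WT, 127 and 191 in WT 3 h post UV, 146 and 71.5 in unchallenged ASH1L-/- and 150.5 and 146.5 in ASH1L-/- 3 h post UV. That was 1.52 to 1.86 times the median of all promoters in the same list. The local background was also higher at members, at 2.41 to 5.10 times the genome mean in the 8 lists against 1.87 to 3.69 at all promoters. Fold enrichment divides by this background, and the ratio of median fold enrichments was 1.13 to 1.34. RPL23A had the highest background of the members, with a mean pileup of 170.6 times the genome mean on a background of 15.2 times and a mean percentile of 89.9.

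**Figure D2:**
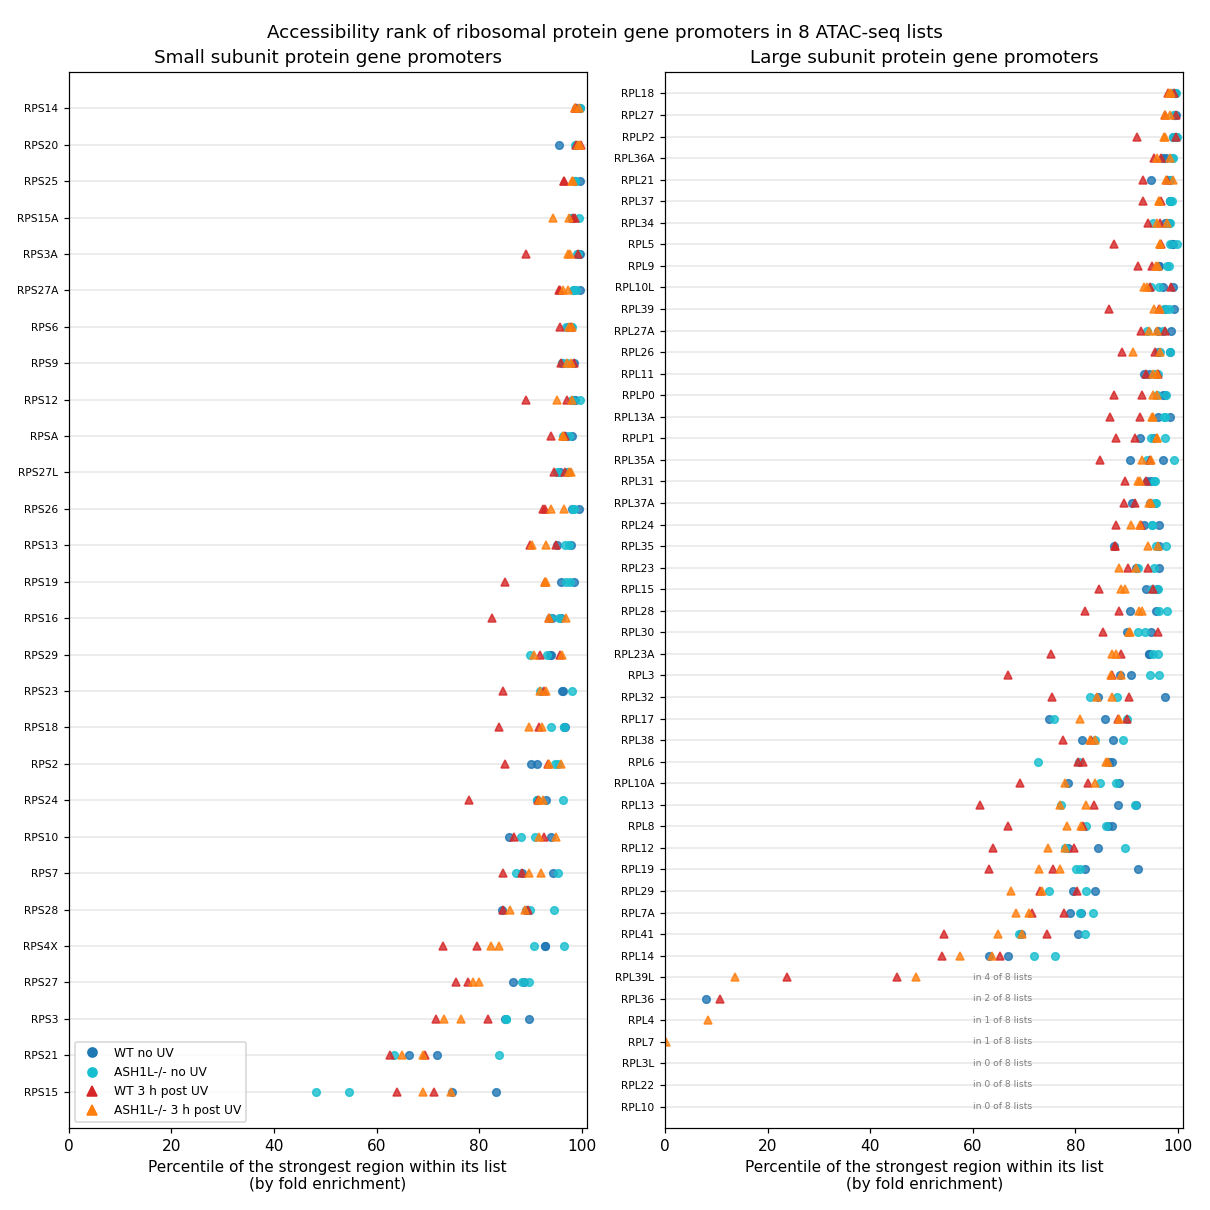
Percentile of the strongest region within its list (x axis, by fold enrichment) for 76 members, of the small subunit (left) and the large subunit (right), 1 symbol per library, circles for unchallenged cells and triangles for 3 h post UV. The strongest member, RPS14, sits between 98.6 and 99.8, RPL14 between 54.1 and 76.0, and the 7 members at the bottom right have a region in fewer than 8 lists at the gene record start.

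RPS14, a protein of the small subunit platform that is lost in the 5q deletion syndrome, had the highest mean percentile, 99.2 (chr5, start 150449739, minus strand). Its values were 99.4 and 99.8 in unchallenged WT, 98.7 and 98.9 in WT 3 h post UV, 98.8 and 99.8 in unchallenged ASH1L-/- and 99.4 and 98.6 in ASH1L-/- 3 h post UV. All 8 libraries placed it within 2 points. RPL18, RPL27 and RPS20 were also among the highest, with means of 99.0, 98.8 and 98.7. In all, 52 of the 74 members had a mean of 90 or over.

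At the other end were RPL14 with a mean of 64.8, RPS15 with 67.5, RPS21 with 69.0, RPL41 with 70.5 and RPL7A with 76.6. RPL14 ranked at 63.2 and 66.8 in unchallenged WT, 65.3 and 54.1 in WT 3 h post UV, 76.0 and 72.0 in unchallenged ASH1L-/- and 57.4 and 63.7 in ASH1L-/- 3 h post UV. These 5 promoters were called in all 8 lists yet lay below the median of all open promoters. Members with the pyrimidine tract had a median of 93.7 (64.8 to 99.2, n = 46) and those without it 88.0 (67.5 to 98.8, n = 16), so the ranges overlapped almost entirely. Members with TCGCGAGA had a median of 85.9 (67.5 to 97.4, n = 12) and the others 93.5 (64.8 to 99.2, n = 50), again with overlapping ranges. These 4 medians are of percentiles at the canonical start.

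Among the members with assigned roles, the 3 genes of the stalk that recruits translation factors (RPLP0, RPLP1 and RPLP2) had mean percentiles of 95.0, 93.9 and 98.0. The 5S particle genes RPL5 and RPL11 were at 96.6 and 95.0. RPSA, which also serves as the laminin receptor, was at 96.6, RPS6, the substrate of S6 kinase, at 97.4, RPS19, mutated in Diamond-Blackfan anaemia, at 94.1, and RPS27A, which encodes ubiquitin fused to the ribosomal protein, at 97.6. RPS3, which also takes part in DNA repair, was lower at 81.0. RPL3, which lies at the peptidyl transferase centre, was at 87.5 and RPL26, which lies near the exit tunnel, at 95.2. The testis paralog RPL10L was at 96.0 and RPS27L, a paralog of RPS27, at 96.6.

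The widest regions were those of RPL3 (mean 1224 bp over the 8 lists), RPS29, RPL28, RPS27A and RPL15. The narrowest were those of RPL19 (mean 362 bp), RPL14 (411 bp), RPS21 (450 bp), RPL17 (478 bp) and RPL6 (508 bp, at its upstream start). RPL19 ranged from 206 to 741 bp, and its window held 2 regions in 5 lists and 3 in the others. Another annotated start of any type lay within 1 kb of 34 members (42.0%) against 29.3% of all genes, and a protein-coding one within 1 kb of 18 (22.2%) against 16.3%. Such regions, for example that between RPL18 and SPHK2 or RPS18 and VPS52, cannot be assigned to 1 gene. Chromosome 19 held 12 of the members.

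Summits lay close to the start. The median position was 115 bp upstream of the canonical start in 80 members, against 138 bp upstream in 11802 promoters, and 43.8% of members against 24.8% of all had it within 100 bp. All members had their summit between 462 bp upstream and 128 bp downstream. The plot of summit positions has 2 modes for members, from 150 to 100 bp upstream (18.75%) and from 50 to 100 bp downstream (20%). Over all promoters it has 2 modes as well, from 200 to 150 bp upstream (14.4%) and from 50 to 100 bp downstream (8.70%).

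The first comparison asked whether UV changed these promoters. After UV the members ranked lower within their lists, as did promoters in general. The median percentile of members was 95.8 and 94.6 in unchallenged WT and 96.4 and 95.4 in unchallenged ASH1L-/- cells, against 93.0 and 87.2 in WT and 94.0 and 93.2 in irradiated ASH1L-/- cells. The 4 UV libraries lay below the 4 unchallenged ones. Member medians of fold enrichment itself were 10.5 to 13.2 without UV and 12.4 to 13.8 after UV. Over all promoters they were 7.81 to 10.6 and 10.2 to 11.9. The upper quartile over all regions of a list was 3.64 to 5.81 without UV and 6.29 to 9.6 after it. Its part in the ranks was not tested. A lower rank is a place within the list and does not state a lower signal. Regions with a q-value under 0.05 made up a share that also moved with UV, from 77.4% to 80.1% in unchallenged lists to 85.7% to 94.2% in UV lists, and its part in the ranks was not tested. Over all promoters the median percentiles were 91.0 and 90.3, 92.3 and 89.8, then 87.8 and 82.8, 87.2 and 88.9, again without overlap.

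**Figure D3:**
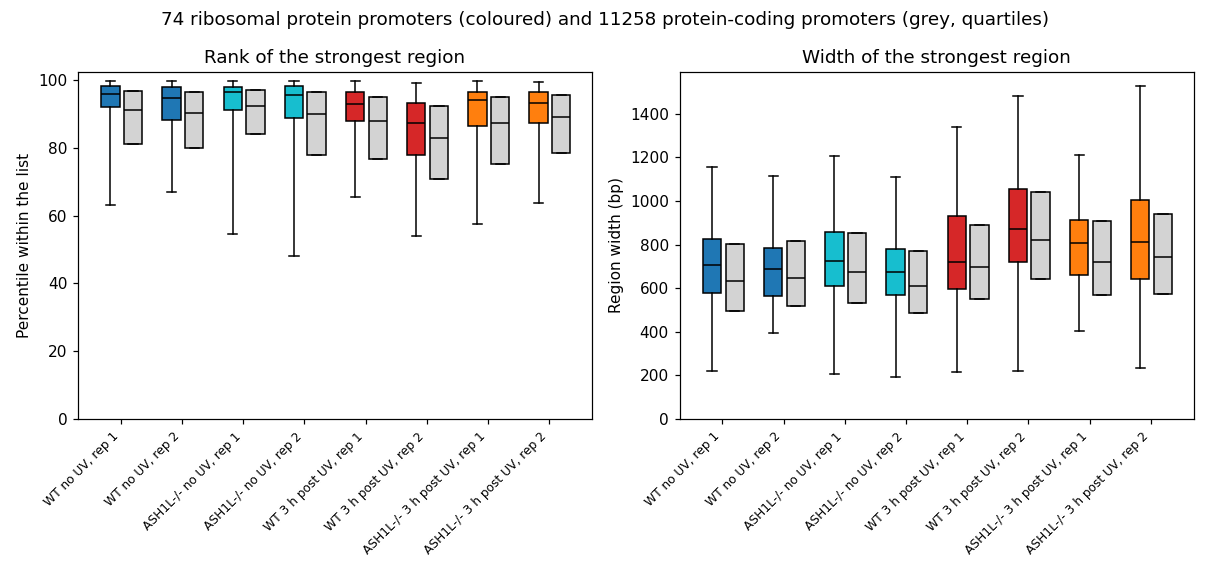
Percentile within the list (left) and width in bp (right) of the strongest region in each of the 8 libraries, for 74 ribosomal protein promoters (coloured boxes: quartiles and median, whiskers to the lowest and highest member) and for 11258 protein-coding promoters (grey boxes, quartiles and median only). Member medians lie between 94.6 and 96.4 without UV and between 87.2 and 94.0 after UV, with WT 3 h post UV replicate 2 lowest, and the grey medians are lower after UV too.

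The UV difference per promoter was the mean of the differences in both genotypes. It had a median of -3.28 percentile points over the members and -2.83 over all promoters, and was negative in 65 of 74 members (87.8%) against 79.8%. In limma, fitted over the 11258 promoters, no member and no promoter passed an adjusted p of 0.05 in either direction (0% called); 25 members (33.8%) and 3204 promoters (28.5%) had an unadjusted p below it. P-values here measure the spread between these libraries. On the logit scale, which widens differences near 100, limma called 16 members lower (21.6%) against 14.9% of all promoters and none higher, against 107 of all. In 22 members (29.7%) the 4 UV values lay below the 4 unchallenged values, against 21.2% of all promoters, and in 0 above them, against 1.14%. The 22 were 11 of each subunit.

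The medians depended on WT 3 h post UV. Without replicate 2 of that group the median was -1.93 points over the members, against -1.82 over all promoters. Without replicate 1 the medians were -4.90 and -3.71. The number of members with separate groups was 23 without replicate 2, against 21.9% of all promoters. Among promoter regions alone, in place of all regions of the list, members had a median of -1.34 points and all promoters +0.16. Within WT the median was -4.22 points over the members and -3.96 over all promoters, and without replicate 2 after UV -1.55 and -1.73. Within ASH1L-/- cells it was -2.26 and -1.81.

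RPS4X, the X-linked copy of a small-subunit gene, had the largest negative difference (chrX, start 72277248, minus strand). It ranked at 92.9 and 92.8 in unchallenged WT, 79.5 and 73.0 in WT 3 h post UV, 96.6 and 90.7 in unchallenged ASH1L-/- and 82.3 and 84.0 in ASH1L-/- 3 h post UV. Every UV value was below every unchallenged one. The difference was -13.5 points (SE 2.99, adjusted p = 0.0952 in limma; on the logit scale adjusted p = 0.00365).

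RPL19 and RPL13 followed at -11.6 (SE 4.31) and -11.2 points (SE 5.40), the latter at -5.64 without WT 3 h post UV replicate 2. In these 2 members the strongest region was not the same one in every list. At RPL19 another region, sharing no base with that of the other lists, was the strongest in both WT libraries and in ASH1L-/- replicate 2 after UV, and at RPL13 in unchallenged WT replicate 1. In the 72 remaining members, and in 87.2% of all promoters, the 8 strongest regions shared a base, and their median UV differences were -3.10 and -2.72 points. RPS3 ranked at 89.7 and 85.1 in unchallenged WT, 81.8 and 71.6 in WT 3 h post UV, 85.3 and 85.3 in unchallenged ASH1L-/- and 76.4 and 73.1 in ASH1L-/- 3 h post UV. These values did not overlap either (-10.6 points, SE 3.63, adjusted p = 0.122 in limma). RPL5 ranked at 99.0 and 98.8 in unchallenged WT, 96.7 and 87.5 in WT 3 h post UV, 98.4 and 99.8 in unchallenged ASH1L-/- and 96.5 and 96.4 in ASH1L-/- 3 h post UV. Its groups were separate as well, with a difference of -4.70 points (SE 1.66, adjusted p = 0.126 in limma and 0.00722 on the logit scale), and of -2.39 points without WT 3 h post UV replicate 2. Its partner RPL11 had a difference of +0.41 points (SE 1.04) with overlapping groups, and of +1.02 without that library.

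RPS19 and RPS27A ranked below their unchallenged values in every UV library, with differences of -6.38 (SE 1.75) and -2.57 points (SE 0.59). Of the stalk, RPLP0 was at -4.17 points (SE 1.36), RPLP1 at -2.20 (SE 1.45) and RPLP2 at -2.79 (SE 1.35), all with overlapping groups. Without WT 3 h post UV replicate 2 they were at -2.77, -1.28 and -0.87 points. RPL3 was at -10.2 points (SE 4.16), where WT 3 h post UV replicate 2 had 66.8 and the other UV libraries 87.0 to 88.9, and at -5.11 without that library. RPS14, RPS6, RPSA and RPL10L had differences of -0.54 (SE 0.41), -0.26 (SE 0.68), -1.37 (SE 0.86) and -1.69 points (SE 1.11). Without that library the last 3 were at -0.79, -2.06 and -0.66 points. The positive extremes were RPL17 at +5.30 (SE 4.28), RPS15 at +4.50 (SE 4.97) and RPL6 at +1.84 points (SE 3.25), none with separate groups. RPL6 was measured here at its gene record start. At the canonical start it ranked at 96.3 and 97.1 in unchallenged WT and 93.4 and 94.7 in WT 3 h post UV. In ASH1L-/- cells it ranked there at 96.2 and 97.5 unchallenged and 96.4 and 97.1 after UV.

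**Figure D4:**
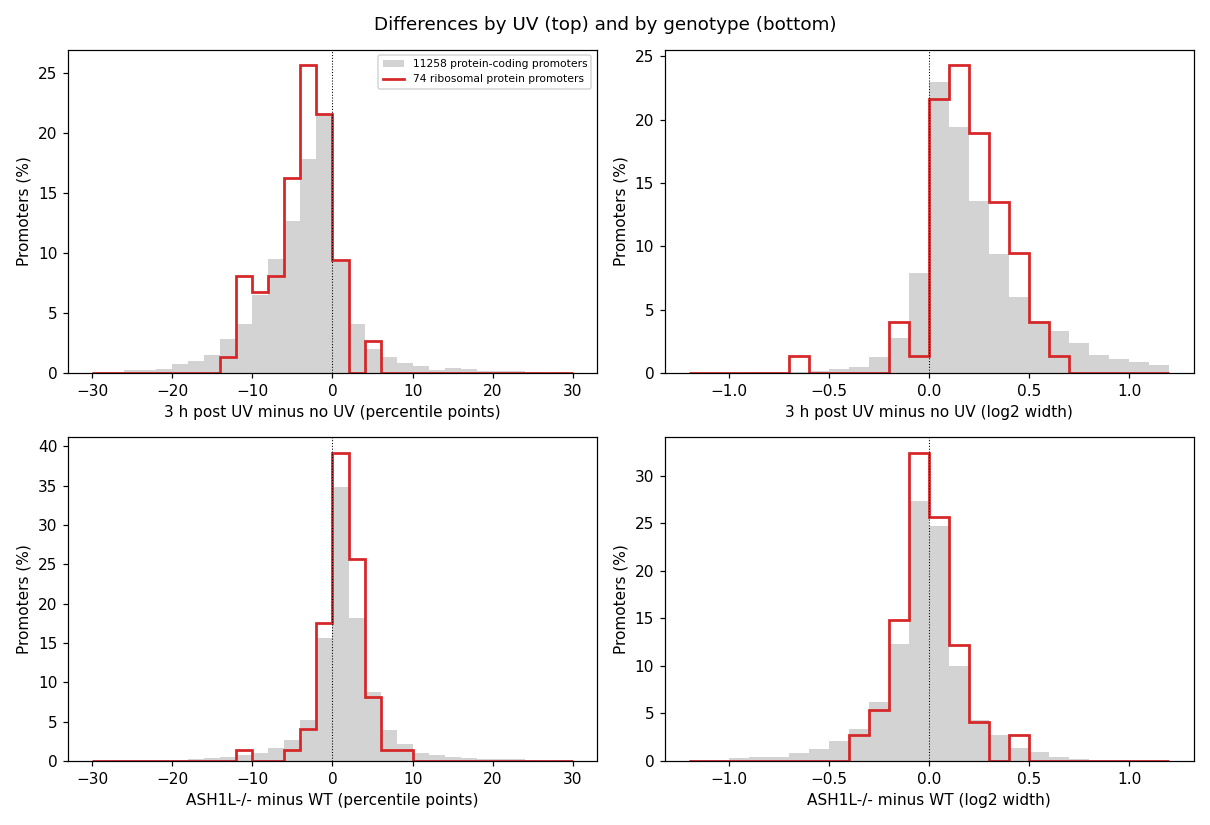
Distribution of the difference 3 h post UV minus no UV (top) and ASH1L-/- minus WT (bottom) in percentile points (left, bins of 2) and in log2 width (right, bins of 0.1), as % of 74 ribosomal protein promoters (red line) and of 11258 protein-coding promoters (grey). The UV medians are -3.28 points and +0.19 log2 for members beside -2.83 and +0.17 for all promoters, and the genotype medians are +1.23 points and -0.02 log2 for members.

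Regions at members were wider after UV, again like those of other promoters. The median width was 708 and 688 bp in unchallenged WT, 719 and 872.5 bp in WT 3 h post UV, 723 and 673.5 bp in unchallenged ASH1L-/- and 809 and 813 bp in ASH1L-/- 3 h post UV. WT 3 h post UV replicate 1 was below 1 unchallenged library. The median difference was +0.19 on the log2 scale against +0.17 over all promoters, and it was positive in 69 of 74 members (93.2%) against 86.7%. Without WT 3 h post UV replicate 2 these medians were +0.12 and +0.11. With each list centred on its median promoter width the members were at -0.02 and all promoters at -0.05. Centring takes out a widening common to promoters, so these values place members beside other promoters and do not give the direction of the UV difference. The shares of regions with a q-value under 0.05 given above moved with the widths as well, and their part in them was not tested.

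In limma no member was called wider or narrower, against 220 wider (1.95%) and 5 narrower of all promoters. An unadjusted p below 0.05 was found in 22 members (29.7%) and 20.4% of all promoters. The reverse of a widening, all UV widths below the unchallenged ones, held for 0 members, against 0.346% of promoters. In 21 members (28.4%) the UV widths all exceeded the unchallenged ones, against 16.1% of promoters. Without WT 3 h post UV replicate 2 these were 21 members and 16.8% of promoters. Counting the bases of the window covered by any region, limma called 4 members (RPL35, RPLP1, RPL10A and RPL17) with more after UV, against 5.13% of promoters. Of the 22 members separated by lower rank, 7 were also separated by greater width: RPL7A, RPL9, RPL23A, RPL24, RPL39, RPS18 and RPS19. Both together held for 9.46% of the 74 members and 3.33% of all promoters.

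RPL10A had the smallest adjusted p. Its region measured 663 and 765 bp in unchallenged WT, 951 and 1056 bp in WT 3 h post UV, 738 and 568 bp in unchallenged ASH1L-/- and 987 and 1090 bp in ASH1L-/- 3 h post UV. The groups did not overlap, and the difference was +0.59 log2 (SE 0.11, adjusted p = 0.0703 in limma). RPSA measured 654 and 664 bp, 927 and 954 bp, 851 and 619 bp, and 931 and 933 bp in the same order (+0.44 log2, SE 0.11, adjusted p = 0.119 in limma). RPL7A was at +0.56 log2 (SE 0.17) with separate groups. The largest positive difference was that of RPL17, +0.61 log2 (SE 0.32), with overlapping groups. Its window held 1 to 3 regions in the 8 lists.

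RPS27L, the paralog of RPS27, measured 551 and 785 bp in unchallenged WT, 1295 and 1368 bp in WT 3 h post UV, 812 and 751 bp in unchallenged ASH1L-/- and 831 and 816 bp in ASH1L-/- 3 h post UV. Both WT libraries after UV were wider than the other 6, and the 4 ASH1L-/- libraries lay between 751 and 831 bp. The window held 1 region in both WT lists after UV, 3 and 2 in unchallenged WT and 2 in every ASH1L-/- list, so that the number of regions moved with the width and its part was not tested. The UV difference was +0.55 log2 (SE 0.12, adjusted p = 0.0944 in limma). The other paralog measured, RPL10L, was at +0.24 log2 (SE 0.19), and at +0.10 without WT 3 h post UV replicate 2. Narrower after UV, with overlapping groups, were RPL41 at -0.65 log2 (SE 0.27), RPS6 at -0.19 (SE 0.09) and RPL19 at -0.16 (SE 0.54). RPL41 measured 498 and 736 bp in unchallenged WT and 491 and 516 bp in WT 3 h post UV. In ASH1L-/- cells it measured 732 and 665 bp unchallenged and 496 and 234 bp after UV. Its window held 2, 1, 1, 2, 1, 1, 2 and 2 regions in the same order, and the part of this in the width was not tested.

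The second comparison was between genotypes. Over both UV states, members ranked a median of 1.23 points higher in ASH1L-/- cells, against 1.06 over all promoters. In limma no member and no promoter was called in rank or in width (0% of promoters each). At an unadjusted p below 0.05 were 8 members in rank (10.8%, against 5.32% of all promoters) and 3 in width (4.05% against 5.82%), with smallest adjusted p of 0.832 and 0.808. The rank difference rested on replicate 2 of WT 3 h post UV, without which the median was -0.03 points, and +0.11 over all promoters. With single libraries left out in turn, the member median ranged from -0.03 to 2.73 points. In unchallenged cells the median was +0.17 points over the members and +0.20 over all promoters. At 3 h post UV it was +2.65 and +1.99, and without replicate 2 of WT it was -0.36 and -0.0024.

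RPS2, a small-subunit protein at the messenger RNA entry, was the only member whose ranks were separate by genotype. It ranked at 90.1 and 91.3 in unchallenged WT, 93.5 and 85.1 in WT 3 h post UV, 95.4 and 94.8 in unchallenged ASH1L-/- and 95.9 and 93.6 in ASH1L-/- 3 h post UV. The difference was +4.89 points (SE 2.07, adjusted p = 0.832 in limma), and +2.80 without WT 3 h post UV replicate 2. Such separation, higher in ASH1L-/-, occurred in 1.7% of promoters and the reverse in 0.746%. The largest differences were +8.33 points at RPL3 (SE 4.16), +6.07 at RPL35 (SE 2.05) and +5.70 at RPL28 (SE 2.11), and -11.6 at RPS15 (SE 4.97), -4.72 at RPL29 (SE 3.99) and -2.67 at RPL10L (SE 1.11). RPS15 had 11 to 49 fragments at its summit over the 8 lists. Without WT 3 h post UV replicate 2 RPL3 was at +3.27 points and RPL35 at +6.07, above it.

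RPL35 was the only member with widths separate by genotype, at 887 and 830 bp in unchallenged WT, 1339 and 948 bp in WT 3 h post UV, 820 and 624 bp in unchallenged ASH1L-/- and 813 and 779 bp in ASH1L-/- 3 h post UV. Its difference was -0.38 log2 (SE 0.14, adjusted p = 0.82 in limma), and its region also spans the start of ARPC5L. Narrower in ASH1L-/- without overlap were 1% of promoters, and wider 0.728%. RPL37 at +0.43 (SE 0.17) and RPL19 at +0.42 log2 (SE 0.54) had larger differences, with overlapping groups, and RPL8 was at -0.31 (SE 0.12).

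The third comparison set the UV difference of WT cells against that of ASH1L-/- cells, by subtracting the latter. No member was called by limma in rank (0% of promoters) or in width (1 of 11258 promoters, 0.00888%), with 3 members (4.05%) at an unadjusted p below 0.05 in each, against 2.56% and 4.4% of all promoters. The member median was -1.72 points, against -1.76 over all promoters, and these became 0.532 and 0.134 without replicate 2 of WT 3 h post UV. Without replicate 1 of that group limma called 7 members, against 5.22% of all promoters.

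RPS15, a protein of the small-subunit head, had the largest contrast in rank. It was at 83.3 and 74.6 in unchallenged WT, 71.2 and 64.0 in WT 3 h post UV, 54.7 and 48.2 in unchallenged ASH1L-/- and 69.1 and 74.6 in ASH1L-/- 3 h post UV. The rank was thus lower after UV in both WT libraries and higher in both ASH1L-/- libraries (-31.7 points, SE 9.95, adjusted p above 0.99 in limma). Few fragments lay at its summit, 32 and 22, 34 and 49, 21 and 11, and 29 and 38 in the same order. In unchallenged ASH1L-/- cells its fold enrichment was 2.63 and 3.61, and in the other lists 5.71 to 7.13. RPL6 at -15.4 (SE 6.49) and RPL13 at -12.7 points (SE 10.8) were next, and RPL14 at +8.06 (SE 10.5), RPL7A at +7.27 (SE 7.32) and RPL17 at +7.05 (SE 8.56) were the positive extremes. Without WT 3 h post UV replicate 2 RPL13 was at -1.52 and RPL14 at +13.7 points. The RPL6 contrast belongs to its gene record start, and its ranks at the canonical start lay between 93.4 and 97.5 in all 8 lists. In width RPS27L had the largest positive contrast, +0.94 log2 (SE 0.24, adjusted p = 0.684 in limma), and RPL19 the largest negative, -1.01 (SE 1.08). In both members the regions measured were not alike in all lists, as given above.

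Related genes gave a frame for these values. Of 15 translation factors of the TOP class, 11 had a region in all lists. Their UV difference in rank had a median of -5.44 points. All 11 were negative, against 79.8% of all promoters, and 6 were called lower on the logit scale, against 14.9%. The median was -2.46 over 6 of 7 cytosolic relatives and -2.73 over 39 of 40 ribosome biogenesis genes. Over 71 of 78 mitochondrial ribosomal protein genes it was -2.05. In width the medians were +0.26, +0.22, +0.20 and +0.18 log2, with 1, 0, 1 and 2 called wider by limma, against 1.95% of all promoters. The members' own medians, -3.28 points and +0.19 log2, lay within these ranges. All of these medians are those of the 8 libraries together. Translation factors had a median percentile of 85.0 in WT 3 h post UV replicate 2 and 91.3 to 92.9 in the other UV libraries. Cytosolic relatives had 91.0 there and 90.9 to 94.2 in the others.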

How the data were processed

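Peak lists of 8 ATAC-seq libraries were used. The authors trimmed reads with cutadapt 1.9.1, aligned them with Bowtie2 2.4.5 to hg38 without chromosome Y, removed duplicates and low-quality alignments, and called peaks with MACS2 2.2.7.1 per library, without pooling. Default settings are stated, while the lists reach down to a −log10 p of 2.00 and hold regions with q-values over 0.05, so the limit used is not that of the default. The deposited fold enrichment is a ratio of pileup to local background. The deposited −log10 p-value and −log10 q-value are those of MACS2, and none of these is scaled between libraries. The cutting-site shift of the reads is not given in the sources used here.

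Records sharing an interval were joined. Percentiles were ranks of fold enrichment over all regions of a list, and pileups were solved from fold enrichment and p, which gave whole numbers within 0.05 for 100% of values tested. A percentile or width says nothing of absolute accessibility. Promoters with a region in all 8 lists (11258) were fitted in limma 3.58.1 (R 4.3.3) with an intensity trend, the 4 groups as coefficients and Benjamini-Hochberg adjustment over all of them, with a threshold of 0.05. Data for the UV difference were also simulated over 11258 promoters. There limma recovered 69% of 200 increases of 20 points and 61% of 200 increases of 1 log2 width. The simulated percentiles could pass 100, which real ones cannot, and decreases were not simulated. Groups came from the sample titles. The alternatives were the logit scale, ranking by −log10 p or among promoter regions, centred widths, covered bases, a q-value limit, other starts and windows, other filters, a replicate block and leaving out each library.

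Members and gene lists were chosen with earlier results of these data known. Named were members lacking a region, the 5 strongest, weakest, widest and narrowest, the largest differences in each direction, those called, and genes chosen by role. Others, such as members with separate groups, were named after their values were seen. Motifs were also chosen after. Single values of 5 members, which stay in all counts and medians, are not reported here.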

Additional observations from a re-analysis of the deposited data

Results flagged for a closer look

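In each set of 4 libraries with the same UV state, values of members and their medians were checked for a library far from the other 3 (64 sets of values, Dixon's test at the 95% level, which chance passes in about 1 of 20). Replicate 2 of WT 3 h post UV stood apart in 5 sets. The median percentile of members was 87.2 there and 93.0 to 94.0 in the other UV libraries. RPL5 had a percentile of 87.5 (others 96.4 to 96.7), RPS19 one of 85.0 (92.8 to 93.1) and RPL3 one of 66.8 (87.0 to 88.9). The RPLP1 region was 1168 bp wide (545 to 634 bp). Replicate 1 of unchallenged WT had a percentile of 89.7 at RPS3 (85.1 to 85.3) and a width of 529 bp at RPLP1 (574 to 582 bp). Replicate 1 of WT 3 h post UV had a width of 1005 bp at RPS14 (777 to 791 bp).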

How the results depend on the processing

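No member was called by limma in any of the 6 comparisons, and some were called in a few alternatives, given here with the share of all promoters called in either direction. For the UV rank difference the counts were 16 on the logit scale (15.9% of all promoters), 22 by groups that do not overlap (22.4%), and 0 to 36 when single libraries were left out, with 5 without WT 3 h post UV replicate 2 (2.6%) and 36 without replicate 1 (33.8%). For the UV width difference they were 4 by covered bases (5.15%), 21 by groups that do not overlap (16.4%), and 0 to 4 without single libraries, with 1 without unchallenged WT replicate 2 (1.75%) and 4 without unchallenged ASH1L-/- replicate 1 (4.24%). For the genotype difference in rank they were 1 by groups that do not overlap (2.44%) and 0 to 20 without single libraries (9.15% for the 20), and in width 1 by groups that do not overlap (1.73%). For the UV by genotype contrast in rank the count was 0 to 7 without single libraries (5.22% for the 7). The cause was not tested.

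Member medians changed sign as follows. With centred widths, which take out a shift common to promoters, the UV median was -0.0231, the genotype median 0.00861 and the contrast -0.00243. By covered bases the genotype median was 0.00365. Among promoter regions the contrast in rank was 0.409. Without single libraries the ranges were -0.0306 to 2.73 for the genotype difference in rank, -0.0444 to 0.0364 for that in width, -4.07 to 0.532 for the contrast in rank and -0.0479 to 0.145 for that in width. The UV medians kept their sign there, -4.90 to -1.93 points and 0.121 to 0.238 log2.

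With a replicate block 0 members were called in each comparison. Every group holds both replicate numbers, so the block cannot move the medians, which were -3.28 points and 0.192 log2 with and without it. Calls of UV width over all promoters fell from 225 to 6. Deviations of same-numbered libraries correlated at -0.101 to 0.11 after their mean shift had been removed. A shift shared by same-numbered libraries would not show there, so whether the numbers pair the samples was not settled. Starts at the canonical site, chosen after seeing the data, left 0 members called. With 2 libraries per group, the simulation recovered 69% of increases of 20 points and 61% of increases of 1 log2 unit. Smaller changes and decreases were not simulated. Simulated percentiles could pass the top of the scale, so the first share does not tell how often real rank changes would be found.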
